A study of Mus musculus with 12 samples.

Results

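The genes described here are 33 enzyme genes of amino acid breakdown and the urea cycle in the mouse liver. They were chosen by symbol, and 30 of them were among the 22180 genes measured under 1 symbol; Gls2, Sds and Sdsl were not analysed here. Each gene was read from its transcript cluster, the set of array probes summarised to 1 value, and from the cluster with the highest mean where it had several. RNA came from the livers of 12 adult female C57Bl/6 mice aged 12 to 14 weeks and kept under 12 hours of light and 12 hours of dark, 6 of the wild type (WT) and 6 that carry a knockout of Ppara (Ppara KO), with 1 Affymetrix MoGene 2.0 ST array per mouse. No treatment is given in the labels for either genotype, and neither the construction of the Ppara allele nor the time of collection or feeding state is stated in the sources used here. The question is which amino acid genes differ in liver when Ppara, the gene of the fatty acid receptor PPARα, is disrupted.

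The liver removes amino nitrogen from surplus amino acids and disposes of it as urea. Transaminases pass amino groups to glutamate, glutamate dehydrogenase (Glud1) frees them as ammonia, and the urea cycle, which starts in the mitochondrion with carbamoyl phosphate synthetase (Cps1), combines ammonia and aspartate nitrogen into urea. The carbon skeletons go to glucose, ketone bodies or the citric acid cycle, tryptophan can also feed the synthesis of NAD, and methionine supplies methyl groups and the sulfur of cysteine and taurine. Many of these genes are known to respond to glucagon, glucocorticoids and dietary protein, and urea cycle genes are highest in hepatocytes near the portal vein.

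Promoter sequences in RefSeq (build GRCm38.p6, 250 bases before to 50 bases after the gene's start) matched 23 of the 30 measured genes. The 250 bases before the start are shown for Oat and Tdo2, the genes with the largest rises. They are also shown for Cbs, Ass1 and Otc, which held a match to a motif of clock transcription factors. Capitals mark that motif, and each sequence is written 5′ to 3′ on the strand of the gene.
Oat, chr7:132576399-132576648, minus strand: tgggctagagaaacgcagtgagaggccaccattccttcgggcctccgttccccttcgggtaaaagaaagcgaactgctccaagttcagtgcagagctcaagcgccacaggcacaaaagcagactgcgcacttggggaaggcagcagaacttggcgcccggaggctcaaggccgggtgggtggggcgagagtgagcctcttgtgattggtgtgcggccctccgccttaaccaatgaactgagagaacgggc
Tdo2, chr3:81975729-81975978, minus strand: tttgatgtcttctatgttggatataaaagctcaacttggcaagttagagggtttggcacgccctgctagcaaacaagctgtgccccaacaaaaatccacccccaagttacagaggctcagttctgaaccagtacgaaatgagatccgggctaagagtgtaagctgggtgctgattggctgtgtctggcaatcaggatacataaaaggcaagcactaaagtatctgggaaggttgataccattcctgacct
Cbs, chr17:31637206-31637455, minus strand: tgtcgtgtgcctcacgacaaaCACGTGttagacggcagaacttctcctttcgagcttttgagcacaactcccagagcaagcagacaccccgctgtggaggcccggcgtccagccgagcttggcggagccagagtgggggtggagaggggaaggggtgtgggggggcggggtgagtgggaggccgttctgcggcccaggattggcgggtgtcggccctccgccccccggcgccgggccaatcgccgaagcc
Ass1, chr2:31470020-31470269, plus strand: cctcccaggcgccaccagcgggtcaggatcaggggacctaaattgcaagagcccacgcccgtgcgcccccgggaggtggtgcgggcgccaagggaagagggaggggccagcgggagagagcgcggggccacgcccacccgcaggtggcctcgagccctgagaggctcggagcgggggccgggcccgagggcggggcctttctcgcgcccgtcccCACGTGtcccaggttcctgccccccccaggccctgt
Otc, chrX:10252055-10252304, plus strand: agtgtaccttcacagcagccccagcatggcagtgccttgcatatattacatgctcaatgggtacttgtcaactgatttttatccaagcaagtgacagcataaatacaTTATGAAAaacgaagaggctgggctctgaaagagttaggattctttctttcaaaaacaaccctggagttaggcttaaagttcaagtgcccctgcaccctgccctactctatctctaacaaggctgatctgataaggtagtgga
The capitals in Cbs and Ass1 are an E-box (CACGTG), a site of BMAL1 with CLOCK or NPAS2, whose first base lies 229 bases before the start of Cbs and 36 bases before that of Ass1. In Otc they are TTATGAAA, a match to a D-box written with 1 base left free (TTATGNAA). The D-box is the type of site bound by DBP and TEF, and the first base of the match lies 143 bases before the start. Of all 32851 promoters listed, 7.15% held an E-box and 3.38% a D-box, and of the 23 promoters here 2 and 1 did. The element of C/EBP factors (TTGCNNAA) was in 3 of the 23, those of Aass, Hal and Hgd, against 10.8% of all. A site of the type bound by PPARα with RXR, named DR1 (AGGTCA, 1 base, and AGGTCA again, with up to 1 mismatch), was in 0 of the 23 and in 0.554% of all. The cAMP element (TGACGTCA, 1.79% of all) and an ATF4 element written as TGATGNAAT (0.965% of all) were in 0 as well. With its last base left free, a form added after seeing the data, the ATF4 element was in 2 of the 23, in Asns as TGATGAAAC and in Got1 as TGATGCAAC, and in 3.97% of all. All motifs were searched on both strands. A match is a description of the letters in this window, and a window without one says nothing about a factor.

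Most amino acid enzyme genes differed by less than 1.5-fold between the genotypes. Of the 30 genes 4 rose in Ppara KO livers, Oat, Tdo2, Gpt2 and Asl, 2 fell, Bhmt and Cbs, and 24 did not pass the test. The ornithine aminotransferase gene Oat was 1.63-fold higher, the only one of the 30 that was called and changed by 1.5-fold or more, as 2.29% of all genes were. Each difference is the Ppara KO mean minus the WT mean on the log2 scale, with the standard error (SE) of limma's fit over all 22180 genes, and a gene was called at a Benjamini-Hochberg adjusted p under 0.05. Over all genes 10.2% were called, 4.46% higher and 5.77% lower, and 6.51% had genotypes that did not overlap.

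These genes are bright on the array, where calls were more frequent. Of the 30, 25 lay in the top 5% of all levels and 27 in the top 10%, against a median level of 4.57 over all genes. Among genes at or above that median 17.5% were called, 7.51% higher and the rest lower, and 11.9% had genotypes that did not overlap. Among the 414 genes with a log2 level of 10 or more, 21.3% were called. The share called among the 30 genes, 20%, was close to both. Their median difference was -0.013, against 0.0090 over all genes, and their median absolute difference was 0.15, against 0.12 among genes at or above the median level.

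The 95% interval of the difference lay within a 1.5-fold change either way for 26 of the 30 genes, all but Oat, Bhmt, Agxt and Asns. For 15 genes, all of them without a call, it lay within 1.25-fold. Mat1a, Tat, Hpd and Cps1 had mean levels of 12 or more, near the highest level of any gene, 13.18, where an array can compress differences.

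**Figure D1:**
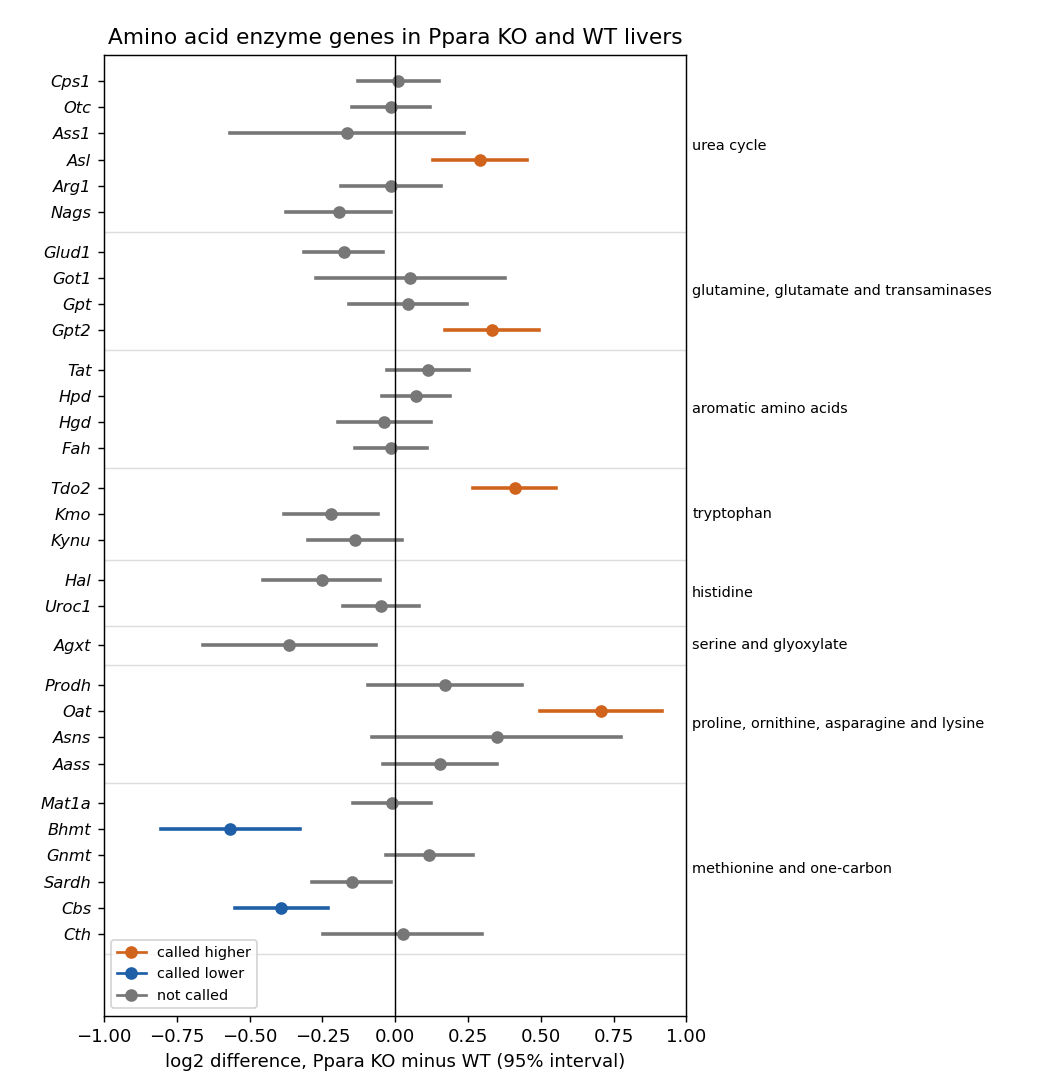
Log2 difference between 6 Ppara KO and 6 WT livers (x axis, points) with its 95% interval (lines) for the 30 measured genes, in 8 groups by role. Oat, Gpt2, Tdo2 and Asl lie above 0 and were called higher, Bhmt and Cbs lie below 0 and were called lower, and the genes in grey were not called.

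Some features of these livers bear on every comparison below. The array signal of Ppara itself did not separate the genotypes, at 7.71 to 8.14 in WT livers and 7.81 to 8.16 in Ppara KO (difference 0.032, 95% interval -0.15 to 0.21, exact 2-sided permutation p = 0.712), and where its probes lie relative to the disrupted part was not stated, so this checks no label. Clock genes stood apart, with 11 of 16 higher and 4 lower in Ppara KO, against 4.46% and 5.77% of all genes. Dbp, a clock output factor, was at 5.99 to 7.09 in WT livers and 9.05 to 10.17 in Ppara KO, and Npas2, a BMAL1 partner, at 7.60 to 7.95 and 4.05 to 4.63, respectively, so clock state and genotype cannot be told apart. Of 8 hepatocyte markers such as Alb and Ttr limma called 0 (2 had an unadjusted p under 0.05), with a mean level of 12.04 to 12.15 in WT livers and 11.99 to 12.08 in Ppara KO livers. The mean of 10 adipocyte markers was 6.67, 7.29 and 7.30 in WT animals 1, 3 and 5, against 5.99 to 6.27 in WT 2, 4 and 6 and values within 5.84 to 6.06 for Ppara KO, and 3 of them, Plin4, Lipe and Adipoq, were called lower. Without WT 1, 3 and 5, which leaves 3 WT animals, 1008 genes were called, among them 2 amino acid enzyme genes that rose, Oat and Tdo2, and 2 that fell, Bhmt and Cbs. In a whole-liver sample, fewer cells of a type and less RNA per cell cannot be told apart.

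In the urea cycle, 1 of 6 genes rose and 0 fell. The gene was Asl, argininosuccinate lyase, which splits argininosuccinate into arginine and fumarate. Its log2 values were 9.75 to 10.17 in WT (median 10.05) and 10.16 to 10.38 in Ppara KO (median 10.32). All Ppara KO animals but animal 4, at 10.16, were above the highest WT animal, number 3 at 10.17. Asl rose by 0.29 (SE 0.076, 1.22-fold, limma adjusted p 0.0229). The call ended without WT animal 1 (adjusted p 0.0511) and without Ppara KO animal 2 (0.0507). It also ended in the settings that leave 3 WT animals, without WT 1, 3 and 5 (0.136) and without WT 1, 2 and 3 (0.0542).

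The other urea cycle genes were not called. Cps1, which makes carbamoyl phosphate and is the entry of ammonia, was at 12.01 to 12.17 in WT livers and 12.01 to 12.29 in Ppara KO, and the interval of its difference was -0.13 to 0.15. Ornithine transcarbamylase, Otc, was at 11.17 to 11.36 and 11.16 to 11.32 (interval -0.15 to 0.12), and arginase, Arg1, at 10.49 to 10.93 and 10.59 to 10.88 (interval -0.19 to 0.16). These 3 genes lay within a 1.25-fold change. Nags, whose product makes the activator of carbamoyl phosphate synthetase, had a difference of -0.19 ± 0.084 (adjusted p 0.178), with 3 of 6 Ppara KO animals below all WT animals. A second, dimmer cluster of Nags, with a mean of 6.37, had a difference of -0.25 ± 0.070 and an adjusted p of 0.0354 when every cluster was tested, so the clusters of this gene disagree on the call. Ass1, argininosuccinate synthase, spread widely in both genotypes, at 5.74 to 6.63 and 5.48 to 6.50, with the difference at -0.17 ± 0.19. Its signal stood at the 71.1 percentile of all genes, although this enzyme is known as abundant in liver, so how well the cluster reports the transcript is uncertain.

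Beside the cycle, 1 of 11 further genes of ammonia and urea handling rose and 1 fell (0 and 1 without WT 1, 3 and 5). For comparison, 10.2% of all genes and 17.5% of those at or above the median level were called in either direction. Both called genes are carriers in the inner mitochondrial membrane. Slc25a13, the aspartate-glutamate carrier citrin that exports the aspartate used by the cycle, rose by 0.31 (SE 0.061, adjusted p 0.00482), from a range of 9.55 to 9.75 in WT to one of 9.85 to 10.05 in Ppara KO. Slc25a22, a glutamate carrier, fell by 0.59 (SE 0.11, adjusted p 0.00248), from a range of 9.35 to 9.58 in WT to one of 8.52 to 9.30 in Ppara KO. In both genes the genotypes did not overlap. The ornithine carrier gene Slc25a15 was not called, with a difference of -0.26 ± 0.10, nor was glutamine synthetase, Glul (0.17 ± 0.061, adjusted p 0.0905).

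Among the genes that gather nitrogen onto glutamate, Gpt2 rose and Glud1, Got1 and Gpt were not called. Gpt2 encodes the mitochondrial alanine aminotransferase, which converts alanine and 2-oxoglutarate to pyruvate and glutamate. It was at 9.52 to 9.79 in WT (median 9.75) and 9.86 to 10.16 in Ppara KO (median 10.03). The genotypes did not overlap, with WT animals 1 and 5 lowest. The rise was 0.33 (SE 0.076, 1.26-fold, limma adjusted p 0.0107). It was no longer called without WT animals 1, 3 and 5 together (0.26, adjusted p 0.119) or without WT animals 1, 2 and 3 together (0.34, adjusted p 0.0748). Both settings leave 3 WT animals.

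The cytosolic alanine aminotransferase, Gpt, did not share this rise. It was at 8.25 to 8.90 in WT livers and 8.55 to 8.78 in Ppara KO, a difference of 0.043 ± 0.095. Within each animal the log2 ratio of Gpt2 over Gpt was 1.08 ± 0.16 in WT and 1.37 ± 0.096 in Ppara KO livers (mean ± SD over n = 6 each). The ratio was higher by 0.29 in Ppara KO (exact 2-sided permutation p = 0.00433, 0.00866 after adjustment over 4 ratios), so the forms changed by unequal amounts. Only the change of such a ratio can be read, since signals of different probes are not on one scale.

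For the aspartate aminotransferases no such difference passed the test. Got1, the cytosolic form, was at 10.27 to 11.20 in WT livers and 10.51 to 11.26 in Ppara KO, a wide spread in both. The log2 ratio of Got1 over the mitochondrial Got2 differed by 0.16 (exact permutation p = 0.392). Got2 itself was at 11.34 to 11.46 in WT livers and 11.24 to 11.33 in Ppara KO, without overlap. Its difference of -0.11 ± 0.054 was not called (limma adjusted p 0.266). Glud1 had 5 of 6 Ppara KO animals below all WT animals, at 11.13 to 11.37 against 11.36 to 11.57, but its difference of -0.18 ± 0.063 did not pass the test (adjusted p 0.0983). It passed with a trended robust prior (adjusted p 0.0197) and among genes at or above the median level (0.0340).

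Oat showed the largest difference of the 30 genes. Ornithine aminotransferase turns ornithine into glutamate semialdehyde and so links the urea cycle with proline and glutamate. Log2 values of Oat were 10.38 to 10.82 in WT (median 10.48) and 10.98 to 11.42 in Ppara KO (median 11.31). Every Ppara KO animal was above every WT animal, with Ppara KO animals 1 and 2 the lowest of their group. The rise was 0.71 (SE 0.099, limma adjusted p 2.91e-04), and Oat was called in each of 22 alternatives that kept the threshold, and also in 3 that made it stricter (an adjusted p under 0.01, a 1.5-fold minimum, and limma's treat test against 1.2-fold, adjusted p 0.0191).

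**Figure D2:**
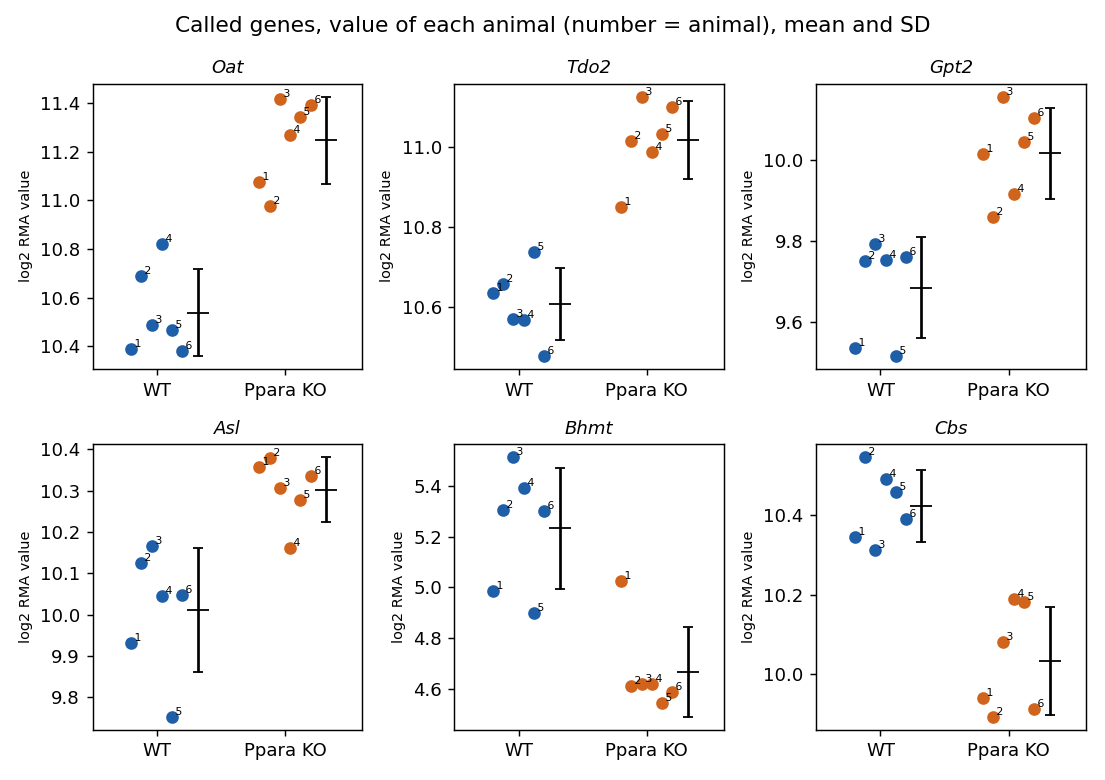
Log2 values (y axis, a separate scale in each panel) of the 6 called genes in each WT and Ppara KO animal, numbered as in the labels, with the mean and SD beside the points (n = 6 each). Oat, Tdo2, Gpt2 and Cbs do not overlap between genotypes; in Asl animal Ppara KO 4 and in Bhmt animal Ppara KO 1 fall in the range of WT.

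The other genes of proline, asparagine and lysine metabolism were not called. Prodh, proline dehydrogenase, was at 8.31 to 9.15 in WT livers and 8.76 to 9.11 in Ppara KO (0.17 ± 0.12), and Aass, which starts lysine breakdown, at 9.91 to 10.36 and 10.09 to 10.54 (0.15 ± 0.092). Asns, asparagine synthetase and a target of the stress factor ATF4, was at 4.77 to 5.11 and 4.73 to 6.36. Ppara KO animal 3 alone gave the highest of these values, while the other 5 were at 4.73 to 5.15, across the range of WT. The difference of Asns, 0.35 ± 0.20, was 0.13 without that animal. In the Ppara KO group 3 of 6 animals were above all WT animals and 1 was below all.

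Of all genes 10.2% were called, and of those at or above the median level 17.5%. In the further list of lysine, proline, histidine and threonine genes 2 of 13 rose and 1 fell (1 and 0 without WT 1, 3 and 5). The largest rise was that of Etnppl, which encodes a phospho-lyase of phosphoethanolamine and not an enzyme of the listed amino acids, and which is also on the list of portal markers. It rose by 1.02 (SE 0.11, 2.03-fold, adjusted p 2.28e-05), from a range of 8.72 to 9.38 in WT to one of 9.81 to 10.16 in Ppara KO. Dhtkd1, a dehydrogenase subunit of lysine breakdown, rose by 0.38 (SE 0.092). Gcdh, glutaryl-CoA dehydrogenase, did not pass the test (-0.13 ± 0.054, adjusted p 0.163), although its genotypes did not overlap.

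Of the 4 genes of phenylalanine and tyrosine breakdown limma called 0, and 0 had an unadjusted p under 0.05. Tat, tyrosine aminotransferase, the first step and a gene known for its glucocorticoid response, was at 11.96 to 12.29 in WT livers and 12.22 to 12.35 in Ppara KO. In 5 of 6 Ppara KO animals it was above all WT animals, by small margins, and the interval of the difference was -0.028 to 0.25. Hpd, the dioxygenase after it, was at 12.14 to 12.27 and 12.20 to 12.33 (interval -0.044 to 0.19). Hgd, homogentisate dioxygenase, was at 10.74 to 10.94 and 10.62 to 10.97, and Fah, fumarylacetoacetate hydrolase, the last step, at 10.72 to 10.89 and 10.69 to 10.88. For all 4 genes the interval lay within a 1.25-fold change.

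In tryptophan breakdown the gene of the main entry enzyme, Tdo2, rose, while Kmo and Kynu were not called. Of 12 further aromatic and tryptophan genes 6 fell, among them Ido2 of the same ring-opening step. Tdo2 encodes tryptophan dioxygenase, which opens the ring of tryptophan and is the main entry of the kynurenine route in liver. It was at 10.48 to 10.74 in WT (median 10.60) and 10.85 to 11.13 in Ppara KO (median 11.02). The genotypes did not overlap, and WT animal 5 and Ppara KO animal 1 lay nearest to each other. Tdo2 rose by 0.41 (SE 0.067, 1.33-fold, limma adjusted p 0.00117) and was called in each of the 22 alternatives that kept the threshold, but not with a 1.5-fold minimum or with treat against 1.2-fold (adjusted p 0.670).

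Later in the route, Kmo and Kynu were lower in mean without a call. Kmo, kynurenine monooxygenase, was at 9.73 to 10.02 in WT livers and 9.43 to 9.75 in Ppara KO, with 5 of 6 Ppara KO animals below all WT animals and a difference of -0.22 ± 0.075 (adjusted p 0.0794). Like Glud1, it passed the test with the trended robust prior (0.0266) and among genes at or above the median level (0.0316). Kynu, kynureninase, was at 9.22 to 9.42 and 8.91 to 9.32 (-0.14 ± 0.075).

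Of 12 further genes of aromatic amino acid and tryptophan metabolism 6 fell and 0 rose (5 and 0 without WT 1, 3 and 5). The median difference of the 12 was -0.21. By comparison, 5.77% of all genes were called lower, and 17.5% of those at or above the median level were called in either direction. The list was chosen with earlier results of these data known. Ddc, the decarboxylase that makes serotonin and dopamine from their precursors, fell by 1.18 (SE 0.17, 2.27-fold, adjusted p 4.48e-04), from a range of 7.28 to 7.94 in WT to one of 6.12 to 7.14 in Ppara KO. Kyat1, an aminotransferase that makes kynurenic acid, fell by 0.64 (SE 0.12), and Ido2, a second ring-opening dioxygenase, by 0.41 (SE 0.082). Further down the route Haao, which makes the precursor of quinolinate, fell by 0.24 (SE 0.060), and Acmsd, which diverts that precursor away from NAD synthesis, by 0.61 (SE 0.10, 7.47 to 7.81 in WT livers and 6.62 to 7.23 in Ppara KO). Qprt, which turns quinolinate into a precursor of NAD, fell by 0.31 (SE 0.091, adjusted p 0.0383). In these 6 genes except Qprt the genotypes did not overlap, and in Qprt WT animal 5, at 7.85, lay below the Ppara KO range. The call of Qprt ended without any 1 of 10 animals, all but WT 5 and Ppara KO 3, at an adjusted p of 0.0526 to 0.0875. Afmid, the formamidase of the step directly after Tdo2, was higher in mean without a call (0.084 ± 0.12), and Aadat, an aminotransferase of the same route, was not called either (-0.12 ± 0.067).

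**Figure D3:**
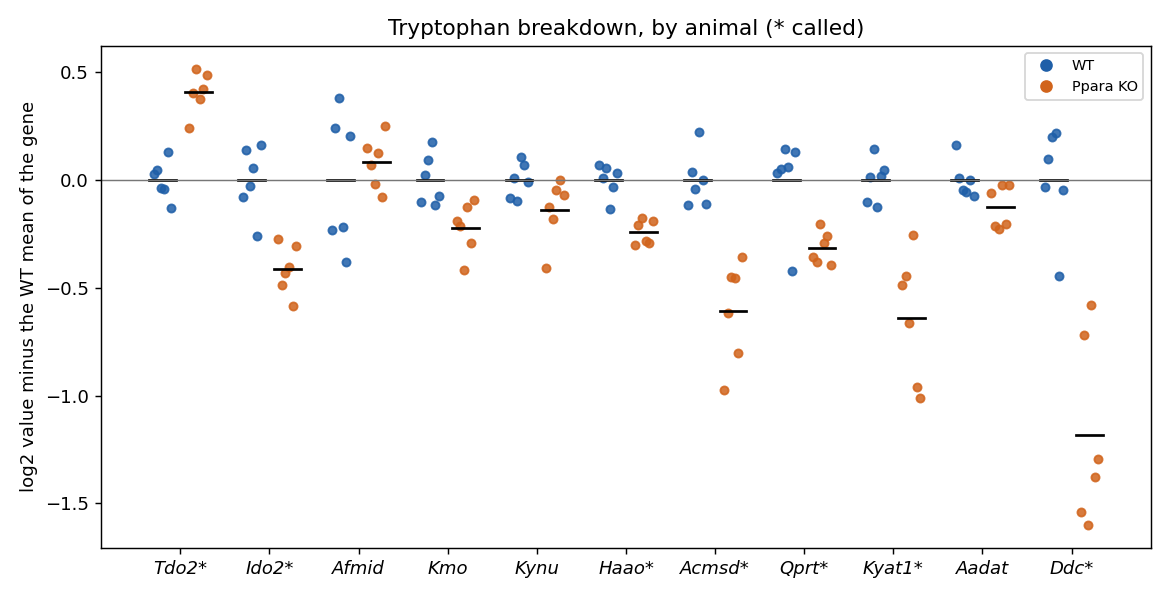
Log2 values of tryptophan genes in each animal (points) minus the WT mean of the gene (y axis), with the group mean as a bar, for 6 WT and 6 Ppara KO animals, and an asterisk at called genes. Tdo2 lies above 0 in all Ppara KO animals, whereas Ido2, Haao, Acmsd, Qprt, Kyat1 and Ddc lie lower than in WT by group mean.

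Of the 2 histidine genes limma called 0, and 1, Hal, had an unadjusted p under 0.05. Hal, histidine ammonia-lyase, which removes ammonia from histidine, was at 10.49 to 10.86 in WT livers and 10.17 to 10.75 in Ppara KO. Of the Ppara KO animals 4 were below all WT animals, while animal 6, at 10.75, stood within the WT range. The difference of Hal, -0.25 ± 0.095 (adjusted p 0.114), was -0.32 and passed the test without that animal (adjusted p 0.0325). Uroc1, urocanase, the next step, was at 9.98 to 10.22 and 9.98 to 10.11 (interval -0.18 to 0.081). Amdhd1, which acts after it, fell by 0.32 (SE 0.095, adjusted p 0.0412), a call that ended without any 1 of 8 animals (WT 1, 2, 3, 4 and 6 and Ppara KO 1, 2 and 3), at an adjusted p of 0.0561 to 0.0918.

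Agxt, which converts alanine and glyoxylate to pyruvate and glycine, had the largest decrease in mean among the genes without a call. It was at 9.48 to 10.17 in WT (median 9.74) and 8.80 to 9.62 in Ppara KO (median 9.49), where animal 2 was the lowest. Its difference was -0.36 ± 0.14 (95% interval -0.66 to -0.067, adjusted p 0.120). Grhpr, which also removes glyoxylate, was called, and fell by 0.34 (SE 0.074), from a range of 9.58 to 9.87 in WT to one of 9.21 to 9.55 in Ppara KO.

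Of the methionine and one-carbon genes 2 of 6 fell and 0 rose. Cbs, cystathionine beta-synthase, which joins homocysteine and serine in the first step toward cysteine, was at 10.31 to 10.55 in WT (median 10.42) and 9.89 to 10.19 in Ppara KO (median 10.01). All Ppara KO animals were below all WT animals. Cbs fell by 0.39 (SE 0.074, 1.31-fold, limma adjusted p 0.00329) and was called in each of the 22 alternatives that kept the threshold, but not with a 1.5-fold minimum or with treat against 1.2-fold.

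Bhmt, which remakes methionine from homocysteine with betaine, was at 4.90 to 5.51 in WT (median 5.30) and 4.54 to 5.02 in Ppara KO (median 4.62). In the Ppara KO group 5 animals lay below all WT animals, and animal 1, at 5.02, lay above WT animals 1 and 5. The fall was 0.57 (SE 0.11, 1.48-fold, limma adjusted p 0.00426), again called in each of those 22 and not with a 1.5-fold minimum or treat (adjusted p 0.315). The signal of Bhmt stood at the 55.3 percentile of all genes, low for an enzyme known to be abundant in liver, so how well the cluster reports the transcript is uncertain, and deposited values of this kind can understate changes of dim genes.

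Bhmt2, a related methyltransferase gene, was not called. Its values were 9.13 to 9.68 in WT livers and 9.22 to 9.61 in Ppara KO (0.035 ± 0.099). The log2 ratio of Bhmt over Bhmt2 was -4.17 ± 0.14 in WT and -4.77 ± 0.17 in Ppara KO livers (mean ± SD over n = 6 each) and did not overlap between them. The difference of -0.60 had an exact 2-sided permutation p of 0.00216, the smallest that 6 against 6 can give, and 0.00866 after adjustment over 4 ratios. The fourth ratio, Arg1 over Arg2, differed by -0.014 (exact permutation p = 0.922).

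The other methionine and one-carbon genes of the 30 were not called. Mat1a, which makes S-adenosylmethionine, was at 12.23 to 12.42 in WT livers and 12.20 to 12.39 in Ppara KO (interval -0.14 to 0.12), within a 1.25-fold change. Gnmt, which uses it to methylate glycine, was at 10.91 to 11.18 and 11.02 to 11.33 (0.12 ± 0.071). Sardh, sarcosine dehydrogenase, was at 10.05 to 10.29 and 9.96 to 10.15 (-0.15 ± 0.063, adjusted p 0.162), and 4 of 6 Ppara KO animals were below all WT animals. Cth, the step after Cbs, was at 10.39 to 11.07 and 10.47 to 11.12 (0.025 ± 0.13), so that of the transsulfuration pair only Cbs was called; whether Cbs and Cth changed by unequal amounts was not tested.

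Among 25 further glycine, serine and one-carbon genes 2 rose and 3 fell (1 and 2 without WT 1, 3 and 5). This count is near the share called among genes at or above the median level, 17.5%, against 10.2% of all genes. Gldc and Amt, parts of the mitochondrial glycine cleavage system that breaks glycine down to ammonia and a one-carbon unit, fell. Gldc was at 9.25 to 9.34 in WT, a narrow range, and at 8.14 to 8.88 in Ppara KO, a fall of 0.84 (SE 0.11, 1.79-fold, adjusted p 2.32e-04). Amt went from a range of 7.94 to 8.23 in WT to one of 7.20 to 7.76 in Ppara KO, a fall of 0.67 (SE 0.090, adjusted p 2.33e-04), while Gcsh, the lipoyl carrier protein of the same system, was not called (0.25 ± 0.12).

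Csad, which makes the precursor of taurine from cysteine sulfinate, rose by 0.98 (SE 0.16, 1.97-fold, adjusted p 0.00120), from a range of 8.36 to 8.96 in WT to one of 9.01 to 10.09 in Ppara KO. Ahcy, which splits S-adenosylhomocysteine to homocysteine, rose by 0.37 (SE 0.094, adjusted p 0.0189). Cdo1, the dioxygenase that feeds Csad, was at 11.84 to 11.93 and 11.76 to 11.93 and was not called.

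**Figure D4:**
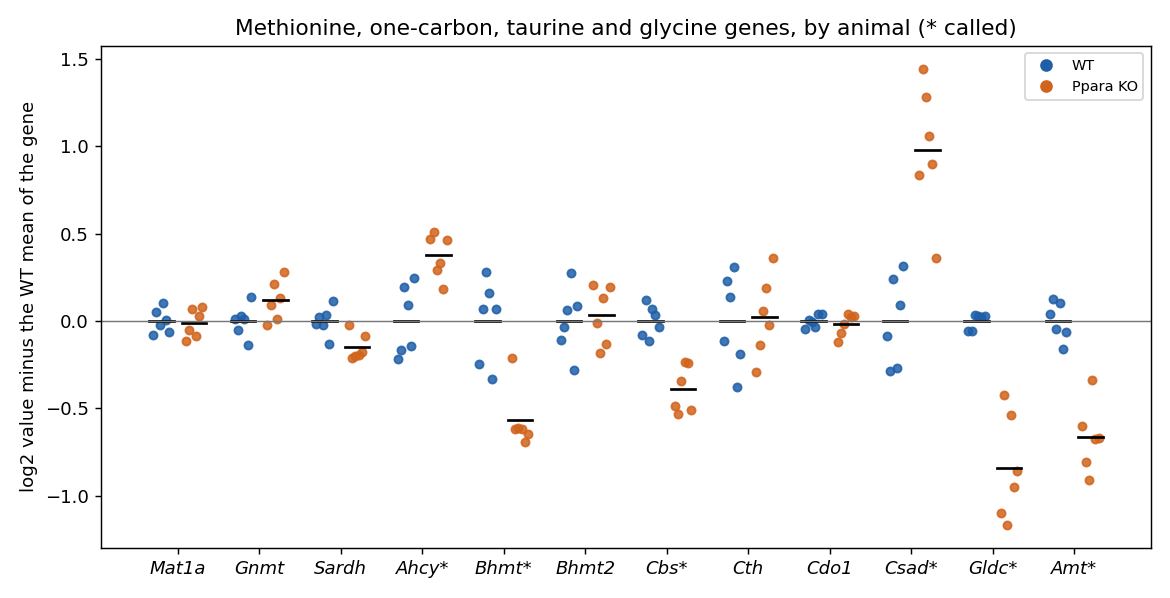
Log2 values of methionine, one-carbon, taurine and glycine genes in each animal (points) minus the WT mean of the gene (y axis), with the group mean as a bar, for 6 WT and 6 Ppara KO animals, and an asterisk at called genes. Cbs, Bhmt, Gldc and Amt are lower and Ahcy and Csad higher in Ppara KO, while the group means of Mat1a, Bhmt2, Cth and Cdo1 stay near 0; single animals of Cth lie far from it.

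Branched-chain amino acids, which the liver mostly leaves to muscle for their first step, had 3 rises and 1 fall among 21 genes (0 and 0 without WT 1, 3 and 5), with a median difference of 0.047. Among all genes at or above the median level, 17.5% were called in either direction. Bckdk, the kinase that switches the branched-chain keto acid dehydrogenase off, fell by 0.31 (SE 0.067, adjusted p 0.00855). Ppm1k, the phosphatase that switches it on, rose by 0.33 (SE 0.096, adjusted p 0.0379), and Bckdhb, a subunit of the complex, by 0.26 (SE 0.069). Aldh6a1, which acts late in valine breakdown, rose by 0.23 (SE 0.057). The call of Ppm1k ended without any 1 of 8 animals, all but WT 2 and 3 and Ppara KO 2 and 4 (adjusted p 0.0579 to 0.0838), and that of Bckdhb without WT 5, WT 6, Ppara KO 3 or Ppara KO 6 (0.0599 to 0.0640).

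Amino acid transporters had 5 rises and 1 fall among 17 genes (3 and 1 without WT 1, 3 and 5). Slc7a2, a carrier of arginine, lysine and ornithine, rose by 0.71 (SE 0.11, 1.64-fold, adjusted p 0.00101), from a range of 9.20 to 9.63 in WT to one of 9.69 to 10.42 in Ppara KO. Slc1a2, a glutamate carrier of hepatocytes near the central vein, rose by 0.76 (SE 0.072). Slc38a2 and Slc38a4, sodium-coupled carriers of neutral amino acids such as alanine, rose by 0.41 (SE 0.075) and 0.26 (SE 0.065), and Slc16a10, a carrier of aromatic amino acids, by 0.39 (SE 0.11). The call of Slc16a10 ended without WT 1 or 5 or Ppara KO 1, 3, 5 or 6 (adjusted p 0.0524 to 0.0726). Slc1a4, a carrier of alanine and serine, fell by 0.74 (SE 0.099, adjusted p 2.06e-04). Slc38a3, a carrier of glutamine, was not called (0.14 ± 0.071).

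The genes also varied between animals of one genotype, and partly together. Taking each gene relative to the mean of its own genotype, WT animal 5 was lowest by mean deviation (-0.15 over the 30 genes). It had the lowest WT value in 19 of the 30 genes, among them Cps1, Asl, Arg1, Got1, Gpt and Gpt2, whereas over genes at or above the median level WT animal 5 was lowest in 18.3%. WT animal 2 had the highest mean deviation, 0.11, with 26 of 30 genes above their WT mean. In Ppara KO animal 6 stood highest, with 26 of 30 genes above their own mean and a mean deviation of 0.087, and animals 1 and 2 lowest, at -0.074 and -0.070. Over genes at or above the median level the mean deviation of the 12 animals ran only from -0.027 to 0.014. Without WT animal 5 the counts of 4 rises and 2 falls stayed as they were.

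**Figure D5:**
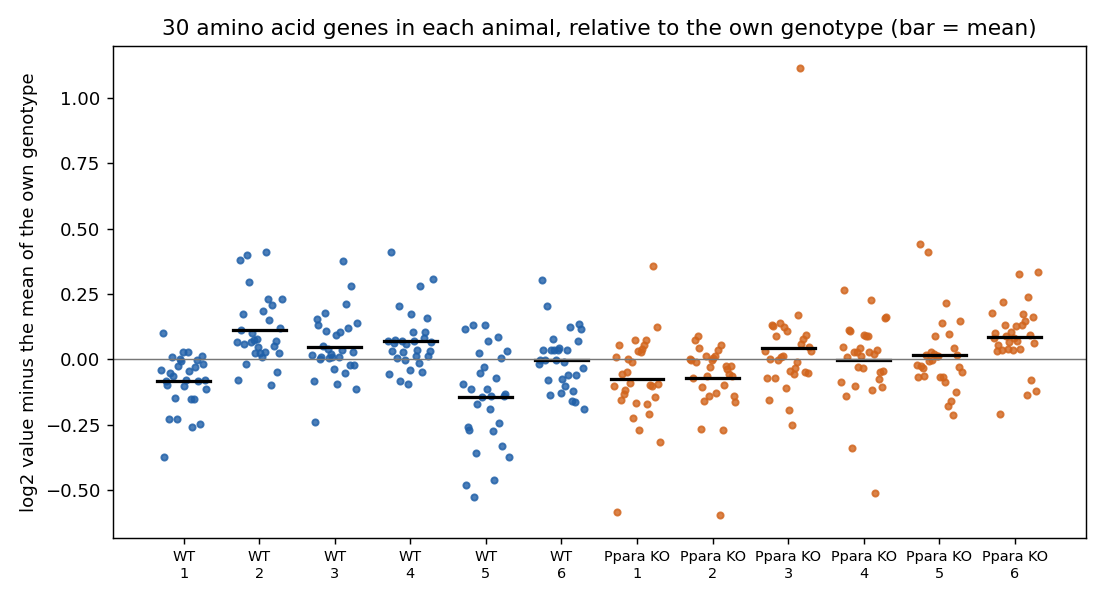
Log2 value of each of the 30 genes in each animal minus the mean of the gene in its own genotype (y axis, points), with the mean over the genes as a bar, for 6 WT and 6 Ppara KO animals. WT 5 has the lowest bar, at -0.15, WT 2 the highest, at 0.11, and the single high point in Ppara KO 3 is Asns.

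Markers of liver zones and of other cells were compared as whole lists. Markers of hepatocytes near the portal vein rose in 6 of 12 and fell in 1. Their mean level was 9.71 to 9.90 in WT livers and 9.90 to 10.19 in Ppara KO livers. This list shares Etnppl with those above, Pck1 with the adipocyte markers and the glucagon responders, and none of the 30 enzyme genes. Pck1 is 1 of the 6 rises, and its call ended without any 1 of 7 animals. Without WT 1, 3 and 5 the portal markers rose in 3 and fell in 0. Markers of hepatocytes near the central vein, which share Slc1a2 and Glul with the lists above, rose in 4 of 11 and fell in 1, at mean levels of 9.03 to 9.29 in WT livers and 9.15 to 9.27 in Ppara KO livers, and without WT 1, 3 and 5 in 1 and 1. The part of these shifts in the differences of the enzyme genes was not tested. Other calls were 1 of 10 macrophage genes (Cd5l, higher), 2 of 6 cholangiocyte genes (Krt19 and Sox9, lower), 1 of 7 lymphocyte genes (Cd8a, higher) and 1 of 10 adipocyte genes in the upward direction (Pck1, also a liver gene). Limma called 0 of 9 endothelial, 0 of 9 stellate cell, 0 of 2 red blood cell, 0 of 6 pancreas and 0 of 8 neutrophil genes, where 4, 4, 0, 1 and 0 had an unadjusted p under 0.05.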

How the data were processed

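The authors' deposited values are on the log2 scale, 1 column per mouse, made with RMA (background correction, normalization between arrays and summary of probes) and Partek according to the submitters' processing notes; versions and the genome build are not given in the sources used here. RMA brings arrays to a common distribution (medians 4.13 to 4.17) and can compress changes of dim genes. Of 41345 transcript clusters 23521 had 1 symbol in the platform annotation, 1814 several and 16010 were not listed. The brightest cluster stood for each of 22180 genes. Genotypes were compared with limma 3.58.1 in R 4.3.3 (lmFit and eBayes, 2-sided, no covariate, Benjamini-Hochberg over all genes), and ratios of related genes with exact permutation over 924 assignments in Python 3.11.15. The number of arrays limits the precision (median SE 0.093). Simulated data served to test the fit. Of 6 planned ratios 2 are not reported here.

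Genes named are the 30 measured members, Ppara, the 5 called genes of lowest adjusted p and the 2 brightest uncalled genes of each further list at most, and up to 2 called genes of a marker list. Qprt, Slc16a10, Slc25a15, Afmid, Aadat, Gcsh, Pck1, Alb, Ttr and Adipoq were named after their values were seen. The members and lists were chosen with earlier results of these data known, so their directions are no independent support. Alternatives covered the variance prior, array weights, renormalization, centring, a filter on dim genes, the choice of cluster, thresholds, the block and animals left out.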

Additional observations from a re-analysis of the deposited data

Results flagged for a closer look

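Within a group of 6 animals a value was singled out when its gap to the nearest other animal exceeded 0.625 of the group's range (Dixon's test). Of 62 groups tested, for 30 members and Ppara, 6 had such a value, and chance flags about 1 in 20. The lowest WT value of Tat was 11.96, in animal 1, against 12.22 to 12.29 in the other 5, and the lowest Ppara KO value of Tat was 12.22, also in an animal numbered 1, against 12.30 to 12.35. Hgd was at 10.74 in WT animal 5 and at 10.89 to 10.94 in the others. Agxt was at 8.80 in Ppara KO animal 2 and at 9.36 to 9.62 in the others. Asns was at 6.36 in Ppara KO animal 3, above the 4.73 to 5.15 of the other 5. Bhmt was at 5.02 in Ppara KO animal 1, where the other 5 lay within 4.54 to 4.62.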

How the results depend on the processing

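The 6 called members kept their direction in each of 22 alternatives that kept the threshold, and 4 of them, Oat, Tdo2, Bhmt and Cbs, kept their call in all 22. Of 3 stricter thresholds, an adjusted p under 0.01 kept these 4 calls, and a 1.5-fold minimum and treat against 1.2-fold kept only that of Oat. Asl was not called in 5 and Gpt2 in 2 (without WT 1, 3 and 5 and without WT 1, 2 and 3). Of the 24 others 21 were called in none, Glud1 and Kmo in 2 each and Hal in 1, and 9 changed sign without a call. The 2268 called genes became 1008 without WT 1, 3 and 5, 882 without WT 1, 2 and 3, 1070 at an adjusted p under 0.01, 329 with limma's treat against 1.2-fold, 508 with a 1.5-fold minimum, and 1817 to 2130 with 1 animal left out; members called higher, 4, became 2, 2, 2, 1, 1 and 3 to 4. The first 2 alternatives use fewer animals. Members called lower, 2, became 4 with the trended robust prior and 4 among genes at or above the median level, 0 with treat and 0 with a 1.5-fold minimum, and were 2 to 3 with 1 animal left out. With the replicate number as a block 1672 genes, 3 members higher and 2 lower were called, and Asl was lost (adjusted p 0.0514). Same-numbered animals did not deviate together (correlations -0.047 to 0.043 over genes, and 1 of 6 animals correlated best with its own number). No pairing by number was seen, but this check cannot exclude a shared effect that is small beside the spread between animals. Ppara was called in 0 of its alternatives. Ratio differences with 1 animal left out ran from 0.24 to 0.33 for Gpt2 over Gpt, -0.64 to -0.55 for Bhmt over Bhmt2, 0.057 to 0.23 for Got1 over Got2 and -0.11 to 0.11 for Arg1 over Arg2. With the block and exact sign flips, 0.29 for Gpt2 over Gpt and -0.60 for Bhmt over Bhmt2 had an adjusted p of 0.0625, each at the smallest unadjusted p that 6 pairs allow, so this says nothing about their stability. Of 42 called further genes picked by lowest adjusted p, 20 kept their call in all 22 of those alternatives and 0 changed sign. The 42 leave out Qprt, Slc16a10 and Pck1, whose calls ended without any 1 of 10, 6 and 7 animals, respectively. The number of arrays, bright signals near the top of the range and dim signals of Bhmt, Asns and Ass1 limit what differences can be seen.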

Other observations

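The list of liver transcription factors that are known to act on these enzyme genes also holds the genes of the glucagon receptor and a coactivator. It had 3 rises and 1 fall among 15 genes (2 and 0 without WT 1, 3 and 5). For comparison, 10.2% of all genes and 17.5% of those at or above the median level were called in either direction. Cebpa, a factor of hepatocyte metabolism, rose by 0.38 (SE 0.064, limma adjusted p 0.00131), from a range of 9.04 to 9.29 in WT to one of 9.48 to 9.64 in Ppara KO. Klf15, a regulator of amino acid breakdown, rose by 0.56 (SE 0.11), with WT animal 1 lowest at 7.57, and Cebpb by 0.37 (SE 0.099). Foxa2 fell by 0.48 (SE 0.11), and Hnf4a was not called (0.12 ± 0.071). The call of Cebpb ended without WT 2, 5 or 6 or Ppara KO 2, 4 or 5 (adjusted p 0.0506 to 0.0626).

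Genes of the response to amino acid shortage, which share ATF4 with Asns, had 3 rises and 1 fall among 20 (1 and 0 without WT 1, 3 and 5). The share called in either direction was 10.2% over all genes and 17.5% among those at or above the median level. Sesn2, a sensor of leucine, rose by 0.57 (SE 0.11), Trib3, an inhibitor of the kinase AKT, by 0.51 (SE 0.12), and Cebpg by 0.33 (SE 0.074), whereas Atf5 fell by 0.39 (SE 0.11). Responders to glucagon, cAMP and glucocorticoids had 3 rises and 3 falls among 16 (1 and 1 without WT 1, 3 and 5). Per1, which is also a clock gene, rose by 1.47 (SE 0.15), Fkbp5, a chaperone of the glucocorticoid receptor, by 0.55 (SE 0.12) and Pck1, a gene of gluconeogenesis, by 0.30 (SE 0.086). Igfbp1, which encodes a binding protein of insulin-like growth factors, fell by 1.16 (SE 0.16, 2.24-fold), from a range of 10.73 to 10.96 in WT to one of 9.09 to 10.22 in Ppara KO, as did G6pc (-0.61 ± 0.17) and Crem (-0.34 ± 0.092). With 1 animal left out, the calls of Atf5 (9 animals, adjusted p up to 0.0919), Pck1 (7, up to 0.0837), G6pc (7, up to 0.0767) and Crem (5, up to 0.0692) ended.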
